A study of Homo sapiens with 6 samples.

Results

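MicroRNA host-gene lncRNAs were examined in Panc-1 cells, an established cell line from a human pancreatic carcinoma of ductal origin. The members were all rows of the deposited gene table whose symbol begins with MIR and ends with HG, 59 of 42495 gene rows with values. RNA was measured in 3 libraries of Panc-1 cells cultured for 72 h with CAFR-CM and in 3 libraries cultured for 72 h with CAFS-CM. CM is medium conditioned by cancer-associated fibroblasts (CAFs), the fibroblasts of the tumor stroma. In the study's methods, CAFR came from platinum-resistant and CAFS from platinum-sensitive patients with pancreatic ductal adenocarcinoma, and the RNA sequencing used medium of 1 CAF line per group, CAFR1 and CAFS1. No treatment beyond the conditioned medium, and no untreated control, was named for these libraries. With 1 CAF line per group, p-values below measure the spread between these Panc-1 libraries, and the clinical type of the donor and the individual CAF line cannot be told apart.

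A microRNA host gene is transcribed as a long RNA that contains 1 or more microRNA hairpins, in an exon or an intron. The nuclear Microprocessor (DROSHA and DGCR8) cuts the hairpin out, exportin-5 carries it to the cytoplasm, DICER1 trims it to the mature microRNA, and an Argonaute protein uses the seed of that microRNA to find target mRNAs. Several host genes are known as targets of signal-dependent transcription factors, such as MIR210HG of hypoxia-inducible factor and MIR34AHG of p53. The values here are levels of the host transcripts in rRNA-depleted total RNA. Mature microRNAs were not measured in these libraries, and a host level does not give the level of its microRNA.

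By GENCODE v44 spans and RefSeq microRNA entries (GRCh38.p14), at least 1 hairpin on the same strand was matched to 44 members, 70 hairpins in all. Among hosts named below, none was matched to MIR155HG, MIR22HG, MIR3936HG, MIR4458HG, MIR124-1HG, MIR124-2HG, MIR1302-2HG and MIR5689HG. Of the 11 members that differed between the media, 10 had a matched hairpin, together 14, of which 9 lay within introns and 5 overlapped an annotated exon. For each of the 14 hairpins 1 mature strand is shown, with the miR-100 and let-7 members of the abundant hosts MIR100HG and MIRLET7BHG, because they name what each host could give rise to. Capitals mark the seed, bases 2 to 8 from the 5′ end.
hsa-miR-210-3p (MIR210HG, intron): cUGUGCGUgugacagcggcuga
hsa-miR-193b-3p (MIR193BHG, intron): aACUGGCCcucaaagucccgcu
hsa-miR-365a-3p (MIR193BHG, intron): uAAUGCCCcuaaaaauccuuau
hsa-miR-146a-5p (MIR3142HG, exon): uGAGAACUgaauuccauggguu
hsa-miR-3142 (MIR3142HG, intron): aAGGCCUUucugaaccuucaga
hsa-miR-31-5p (MIR31HG, intron): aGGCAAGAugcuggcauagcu
hsa-miR-34a-5p (MIR34AHG, exon): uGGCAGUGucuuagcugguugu
hsa-miR-503-5p (MIR503HG, exon): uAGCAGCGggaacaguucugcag
hsa-miR-181a-5p (MIR181A1HG, intron): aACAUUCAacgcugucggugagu
hsa-miR-181b-5p (MIR181A1HG, intron): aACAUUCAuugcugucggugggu
hsa-miR-99a-5p (MIR99AHG, intron): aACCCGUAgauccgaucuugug
hsa-miR-100-5p (MIR100HG, intron): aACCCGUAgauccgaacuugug
hsa-let-7c-5p (MIR99AHG, exon): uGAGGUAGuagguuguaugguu
hsa-let-7a-5p (MIR100HG, intron, and MIRLET7BHG, exon): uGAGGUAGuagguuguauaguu
hsa-let-7b-5p (MIRLET7BHG, exon): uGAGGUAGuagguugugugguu
hsa-miR-4435 (MIR4435-2HG, exon): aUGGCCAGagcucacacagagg
hsa-miR-1915-3p (MIR1915HG, intron): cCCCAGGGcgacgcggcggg

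Several hosts share a seed. The let-7 seed GAGGUAG occurred in microRNAs of MIR99AHG, MIR100HG, MIRLET7BHG and MIR4500HG, the seed ACCCGUA in miR-99a and miR-100, and the seed ACAUUCA in microRNAs of MIR181A1HG and MIR181A2HG. Hosts of 1 seed did not share 1 result: MIR99AHG was higher after CAFR-CM, while MIR100HG, MIRLET7BHG and MIR4500HG did not pass the test, as the values below show.

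Expression was given by the authors in FPKM, which counts fragments relative to transcript length and library total, and was tested as log2(FPKM + 1) with limma, with adjustment over all 23608 genes above 0.1 FPKM in at least 3 libraries. Fold changes are on that scale, which understates the change of weakly expressed genes. FPKM summed to 666560 to 701406 in the CAFR-CM libraries and to 660604 to 691568 in the CAFS-CM libraries, and 23775 to 24166 genes were above 0.1 FPKM in the CAFR-CM libraries against 22656 to 22936 in the CAFS-CM libraries. The part of that difference in the results was not tested. The epithelial keratin KRT18 was at 1843.25 to 1993.61 FPKM in the CAFR-CM libraries and 2356.34 to 2444.43 FPKM in the CAFS-CM libraries. Of the 8 epithelial markers, 4 were called higher after CAFR-CM and 2 lower. MUC1, EPCAM and CDH1 were higher, with ratios of the means of 3.12, 2.15 and 1.87, as was CLDN4 (log2 fold change 0.14), and KRT18 and KRT19 were lower, with ratios of 0.809 and 0.885. The 8 markers, mostly KRT8 and KRT18, summed to 5142.18 to 5354.91 FPKM in the CAFR-CM libraries and 6060.32 to 6305.68 FPKM in the CAFS-CM libraries. The 13 fibroblast markers summed to 332.06 to 355.71 FPKM in the CAFR-CM libraries and 307.53 to 336.67 FPKM in the CAFS-CM libraries, mostly S100A4. FAP and PDPN were listed at 0 in all 6 libraries, and COL1A2 and DCN did not exceed 0.03 FPKM. COL3A1 was at 21.32 to 26.67 FPKM in the CAFR-CM libraries and 19.91 to 22.76 FPKM in the CAFS-CM libraries. In the same order, COL1A1 was at 28.03 to 30.27 and 19.46 to 21.12 FPKM. THY1 was at 2.21 to 3.01 and 2 to 3.19 FPKM. COL1A1 was the 1 fibroblast marker of 6 tested that was called, higher after CAFR-CM (log2 fold change 0.49, adjusted p = 7.32e-04 from limma). Of 6 leukocyte markers, 3 were tested and 0 were called, with CD68 at 31.61 to 39.34 FPKM over the 6 libraries. Of 5 endothelial markers, 2 were tested and 1, KDR, was higher (log2 fold change 0.37, adjusted p = 0.0245 from limma). In these bulk samples, a change in the share of cells that express a gene and a change in RNA per cell cannot be told apart.

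Of the 59 host genes, 35 were above 0.1 FPKM in at least 3 libraries and were tested. At an adjusted p under 0.05, 9 were higher after CAFR-CM, 25.7% of the host genes tested beside 15.1% of all genes tested, and 2 were lower, 5.71% beside 11.1% of all genes. Past a log2 fold change of 1, 2 host genes were higher, beside 1.12% of all genes, and 0 were lower, beside 0.0593%. In 12 of the 35, each CAFR-CM library was above each CAFS-CM library, beside 26.4% of all genes tested. In 3 of the 35, each CAFR-CM library was below each CAFS-CM library, beside 16.8%. The median log2 fold change was 0.14 for the 35 host genes and 0.06 for all genes tested. These shares were not tested against each other. MIR3142HG and MIR194-2HG passed the filter only through the CAFR-CM libraries, so that they had to be higher there. Both are among the 12 with each CAFR-CM library above, where the filter fixed their separation. Of the 33 that passed through both groups, 8 were higher (24.2%) and 2 were lower (6.06%).

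The host genes differed widely in level. MIR4435-2HG alone took 33.0% to 37.1% of the summed FPKM of all 59 in the CAFR-CM libraries and 46.9% to 50.9% in the CAFS-CM libraries. The next in level were MIRLET7BHG, MIR100HG, MIR31HG and MIR193BHG, with means over the 6 libraries of 25.5, 23.9, 14.3 and 10.8 FPKM. Without MIR4435-2HG, the sum was 147.0, 149.3 and 161.6 FPKM in the CAFR-CM libraries against 115.6, 107.6 and 111.1 FPKM in the CAFS-CM libraries. Thus the sum of the remaining host genes was higher in each CAFR-CM library, while the most abundant host gene was lower. Of the 17 host genes with a mean of at least 1 FPKM, 10 were called, beside 36.7% of all genes tested at that level. Of the 18 tested below 1 FPKM, 1 was called, beside 8.51% of all genes tested there. That 1 was MIR3142HG, which passed the filter only through the CAFR-CM libraries, so that its direction was fixed.

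**Figure D1:**
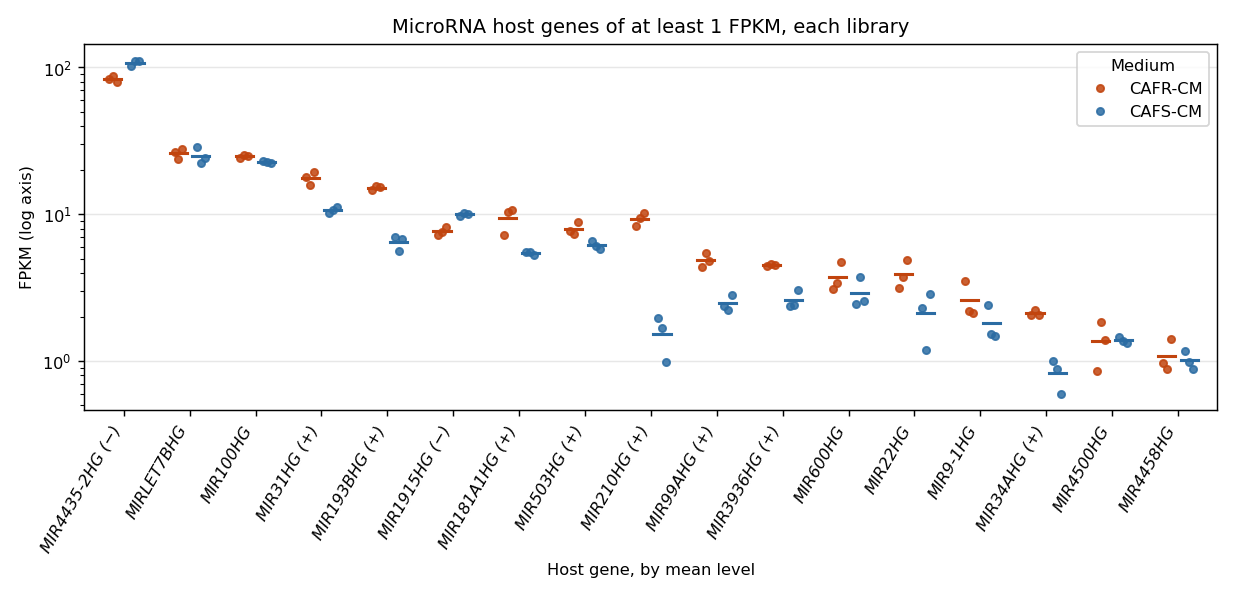
FPKM (log axis) of the 17 host genes with a mean of at least 1 FPKM in each of the 3 CAFR-CM and 3 CAFS-CM libraries, with a line at each group mean; (+) and (−) mark genes higher or lower after CAFR-CM at an adjusted p under 0.05. MIR210HG shows the widest gap between the groups, and MIR4435-2HG and MIR1915HG are the hosts whose CAFR-CM libraries lie below the CAFS-CM libraries.

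MIR210HG showed the largest log2 fold change of the host genes on the log2(FPKM + 1) scale. With a pseudocount of 0.1, its log2 fold change was 2.57 and that of MIR3142HG was larger, at 3.25. MIR210HG hosts miR-210, the microRNA best known for its induction in low oxygen, and lies at chr11:565657-568457 (GRCh38, minus strand). MIR210HG was at 8.37, 9.44 and 10.17 FPKM in the CAFR-CM libraries and 1.97, 1.67 and 0.99 FPKM in the CAFS-CM libraries. The groups did not overlap, and the lowest CAFR-CM library was more than 4 times the highest CAFS-CM library. The means were 9.33 ± 0.905 FPKM after CAFR-CM and 1.54 ± 0.502 FPKM after CAFS-CM (SD, n = 3 each), a ratio of 6.04 and a log2 fold change of 2.04 (SE 0.16, adjusted p = 2.64e-04 from limma).

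MIR193BHG, the other host gene past a log2 fold change of 1, carries miR-193b and miR-365a and lies at chr16:14301389-14331067 (plus strand). It was at 14.55, 15.63 and 15.23 FPKM in the CAFR-CM libraries against 6.97, 5.66 and 6.78 FPKM in the CAFS-CM libraries. The 3 CAFR-CM libraries lay close together, all above the CAFS-CM libraries. The means were 15.1 ± 0.546 FPKM after CAFR-CM and 6.47 ± 0.708 FPKM after CAFS-CM (SD, n = 3 each), a ratio of 2.34 (log2 fold change 1.12, SE 0.08, adjusted p = 1.89e-04 from limma).

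MIR3142HG (chr5:160438594-160487426, plus strand) hosts miR-3142 and miR-146a. MicroRNA miR-146a is known as an NF-kappa B target that dampens Toll-like receptor signaling through TRAF6 and IRAK1. MIR3142HG was at 0.88, 1.2 and 0.99 FPKM in the CAFR-CM libraries, against 0.06 FPKM in CAFS-CM replicate 1 and listed values of 0 in CAFS-CM replicates 2 and 3. The transcript was thus near the lower end of the table in each CAFS-CM library and around 1 FPKM in each CAFR-CM library. The log2 fold change was 0.99 with a pseudocount of 1 and 3.25 with a pseudocount of 0.1, so its size is not a measure of the fold. Because the gene passed the filter only through the CAFR-CM libraries, its direction was fixed and its p-value is not given. MIR155HG, host of miR-155, another microRNA known from NF-kappa B signaling, did not show this pattern. It was at 0.76, 0.51 and 0.65 FPKM in the CAFR-CM libraries and 0.64, 0.84 and 0.58 FPKM in the CAFS-CM libraries. These groups overlapped, with a log2 fold change of -0.04 (SE 0.10, adjusted p = 0.801 from limma).

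MIR34AHG (chr1:9148011-9198906, minus strand) hosts miR-34a, a p53-induced microRNA that restrains the cell cycle. It was at 2.06, 2.24 and 2.05 FPKM in the CAFR-CM libraries and 1, 0.89 and 0.6 FPKM in the CAFS-CM libraries. Each CAFR-CM library was more than 2 times the highest CAFS-CM library. The means were 2.12 ± 0.107 FPKM after CAFR-CM and 0.830 ± 0.207 FPKM after CAFS-CM (SD, n = 3 each), with a log2 fold change of 0.77 (SE 0.11, adjusted p = 0.00281 from limma). MIR31HG (chr9:21380073-21559891, minus strand), the host of miR-31, was the most abundant host gene among those higher after CAFR-CM. It was at 18.02, 15.85 and 19.55 FPKM in the CAFR-CM libraries and 10.24, 10.62 and 11.25 FPKM in the CAFS-CM libraries. The groups did not overlap. The means were 17.8 ± 1.86 FPKM after CAFR-CM and 10.7 ± 0.510 FPKM after CAFS-CM (SD, n = 3 each), a ratio of 1.66 (log2 fold change 0.68, SE 0.08, adjusted p = 0.00139 from limma).

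The let-7 and miR-99/100 hosts are long genes that carry microRNAs restraining growth-promoting targets. MIR99AHG, which spans 718069 bases (chr21:15928296-16646364, plus strand), was at 4.4, 5.47 and 4.83 FPKM in the CAFR-CM libraries and 2.37, 2.24 and 2.84 FPKM in the CAFS-CM libraries. All CAFR-CM libraries were above all CAFS-CM libraries, with a ratio of the means of 1.97 (log2 fold change 0.76, SE 0.11, adjusted p = 0.00275 from limma). MIR100HG (chr11:122028325-122556721, minus strand) was more abundant in FPKM. It was at 24.24, 25.43 and 25.04 FPKM in the CAFR-CM libraries and 23.13, 22.87 and 22.41 FPKM in the CAFS-CM libraries. The groups did not overlap, but the log2 fold change was 0.12 (SE 0.04) and the adjusted p of 0.0574 (limma) missed the threshold. MIR100HG was called under 4 of 13 alternative settings. Its adjusted p (limma) was 0.0167 with cyclic loess scaling (log2 fold change 0.17) and 0.513 with median-of-ratios scaling (0.04). MIRLET7BHG (chr22:46053869-46113928, plus strand) was at 26.52, 23.79 and 27.78 FPKM in the CAFR-CM libraries against 28.56, 22.35 and 24.03 FPKM in the CAFS-CM libraries. These groups overlapped (log2 fold change 0.06, SE 0.10, adjusted p = 0.687 from limma). MIR4500HG, the least abundant of the let-7 seed hosts, was at 0.86, 1.86 and 1.4 FPKM in the CAFR-CM libraries and 1.45, 1.37 and 1.33 FPKM in the CAFS-CM libraries, with overlap (adjusted p = 0.917 from limma).

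MIR181A1HG (chr1:198777861-198937471, minus strand) hosts miR-181a and miR-181b, which are best known from lymphocyte development. It was at 7.24, 10.43 and 10.64 FPKM in the CAFR-CM libraries and 5.58, 5.51 and 5.29 FPKM in the CAFS-CM libraries. CAFR-CM replicate 1 lay below the other CAFR-CM libraries and still above each CAFS-CM library. The ratio of the means was 1.73 (log2 fold change 0.67, SE 0.14, adjusted p = 0.0116 from limma), and the adjusted p was 0.0614 when no filter was applied. MIR181A2HG, which carries the same seed, was at 0.6 to 1.27 FPKM in the CAFR-CM libraries and at 0 to 0.91 FPKM in the CAFS-CM libraries, with overlap (adjusted p = 0.383 from limma).

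MIR3936HG and MIR503HG were the remaining host genes called higher. MIR3936HG (chr5:132311285-132370170, minus strand) overlaps SLC22A4 and SLC22A5, which encode organic cation and carnitine transporters, on the opposite strand. It was at 4.45, 4.56 and 4.53 FPKM in the CAFR-CM libraries and 2.37, 2.4 and 3.07 FPKM in the CAFS-CM libraries. All CAFR-CM libraries were above all CAFS-CM libraries (ratio of the means 1.73, log2 fold change 0.62, SE 0.10, adjusted p = 0.00449 from limma). The sources used here do not give the strand setting of the counting, so reads of opposite strands may not have been told apart. SLC22A5 itself had a log2 fold change of 0.15 (adjusted p = 0.164 from limma) and SLC22A4 of 0.04 (adjusted p = 0.818 from limma).

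MIR503HG (chrX:134543119-134546642, minus strand) hosts miR-503, whose seed begins with the AGCAGC of the miR-15 and miR-16 family. It was at 7.73, 7.33 and 8.91 FPKM in the CAFR-CM libraries and 6.59, 6.04 and 5.84 FPKM in the CAFS-CM libraries. The groups did not overlap, but the step between them was small. The ratio of the means was 1.30 (log2 fold change 0.33, SE 0.09, adjusted p = 0.0306 from limma), and the call was lost under 8 of 13 alternative settings, among them the 2 other scalings and leaving out CAFR-CM replicate 1 or 3 or CAFS-CM replicate 2 or 3 (adjusted p of 0.0515 to 0.0988 under the 8).

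MIR4435-2HG and MIR1915HG were the host genes lower after CAFR-CM. MIR4435-2HG (chr2:111006015-111523376, minus strand), a broadly expressed lncRNA, was at 83.94, 88.1 and 79.44 FPKM in the CAFR-CM libraries and 102.13, 111.31 and 109.94 FPKM in the CAFS-CM libraries. Each CAFR-CM library was below each CAFS-CM library. The means were 83.8 ± 4.33 FPKM after CAFR-CM and 108 ± 4.95 FPKM after CAFS-CM (SD, n = 3 each), a ratio of 0.778 (log2 fold change -0.36, SE 0.05, adjusted p = 0.00314 from limma). Its sequence is nearly identical to that of CYTOR, and counting may divide reads between the pair, so the level of either is uncertain. CYTOR was at 100.49, 109.88 and 95.74 FPKM in the CAFR-CM libraries and 116.27, 115.77 and 111.32 FPKM in the CAFS-CM libraries, also without overlap and lower, but it did not pass the test (log2 fold change -0.17, limma adjusted p = 0.0647). MIR1915HG (chr10:21490272-21497260, minus strand) was at 7.23, 7.55 and 8.15 FPKM in the CAFR-CM libraries and 9.81, 10.22 and 10.06 FPKM in the CAFS-CM libraries. The groups were separate, with a ratio of the means of 0.762 (log2 fold change -0.35, SE 0.06, adjusted p = 0.00612 from limma).

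**Figure D2:**
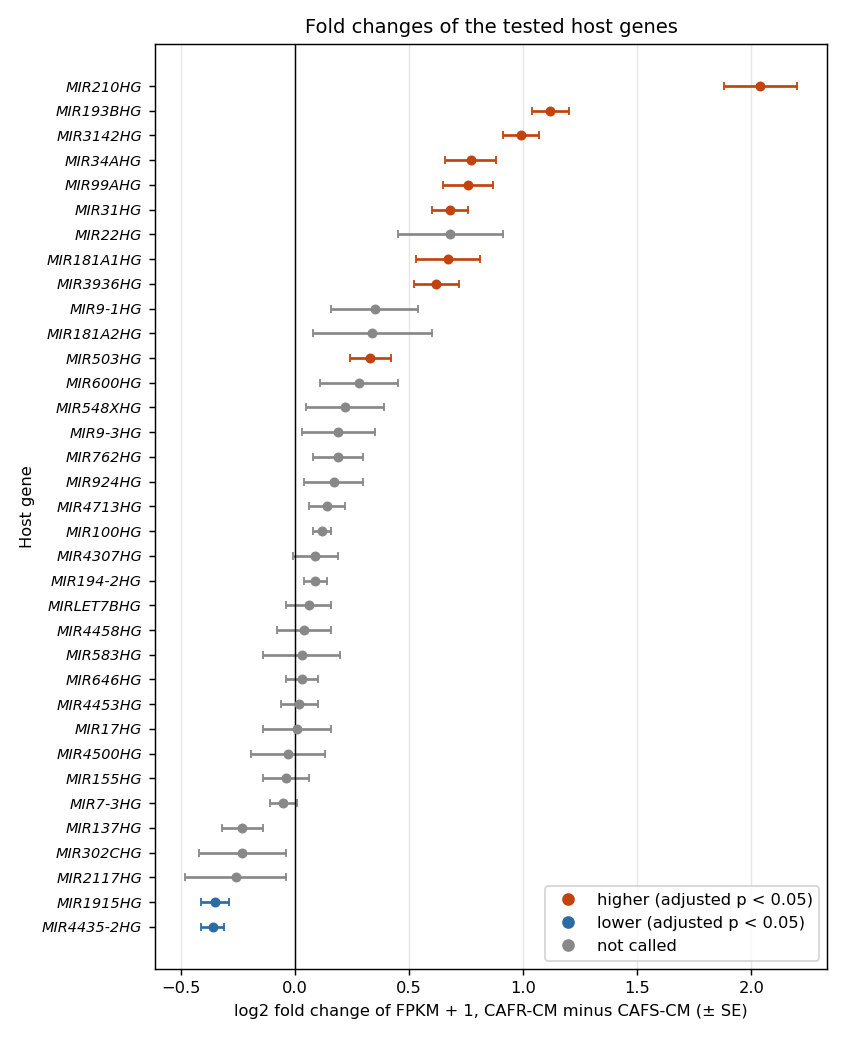
Log2 fold changes of FPKM + 1 (CAFR-CM minus CAFS-CM) with standard errors from limma for the 35 host genes tested, ordered by size and colored by call. The 9 genes called higher reach from 0.33 for MIR503HG to 2.04 for MIR210HG, and the 2 called lower lie at -0.36 and -0.35.

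The other host genes tested, 24 in all, were not called, with log2 fold changes of -0.26 to 0.68. The largest of these was that of MIR22HG (chr17:1711447-1717174, minus strand), host of the stress-responsive miR-22. It was at 3.13, 3.75 and 4.92 FPKM in the CAFR-CM libraries and 2.32, 1.2 and 2.85 FPKM in the CAFS-CM libraries. The groups did not overlap but were spread (SE 0.23, adjusted p = 0.0710 from limma), and the adjusted p was 0.0460 when only genes with a mean of at least 1 FPKM were tested. MIR17HG (chr13:91347686-91397592, plus strand), host of the growth-promoting miR-17-92 cluster and a MYC target, was at 1.13, 0.63 and 1.14 FPKM in the CAFR-CM libraries and 0.69, 1.16 and 1.01 FPKM in the CAFS-CM libraries. These groups overlapped (log2 fold change 0.01, SE 0.15, adjusted p = 0.980 from limma).

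MIR9-1HG, host of the neural miR-9, was at 3.49, 2.18 and 2.12 FPKM in the CAFR-CM libraries and 2.42, 1.52 and 1.48 FPKM in the CAFS-CM libraries (adjusted p = 0.223 from limma). MIR600HG was at 3.12, 3.4 and 4.74 FPKM in the CAFR-CM libraries and 2.45, 3.75 and 2.56 FPKM in the CAFS-CM libraries (adjusted p = 0.289 from limma). MIR4458HG was at 0.97, 0.88 and 1.41 FPKM in the CAFR-CM libraries and 1.18, 0.98 and 0.89 FPKM in the CAFS-CM libraries (adjusted p = 0.828 from limma). In each of these the libraries of the groups were mixed. MIR137HG, host of another neural microRNA, was at 0.16, 0.07 and 0.07 FPKM in the CAFR-CM libraries and 0.21, 0.23 and 0.44 FPKM in the CAFS-CM libraries. It was the 1 uncalled host gene whose CAFR-CM libraries were all below the CAFS-CM libraries (log2 fold change -0.23, limma adjusted p = 0.0998).

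The remaining 24 of the 59 host genes stayed below the filter. MIR202HG, MIR1302-2HG, MIR3976HG and MIR5689HG were listed at 0 in all 6 libraries. The other 20 had a value above 0 in at least 1 library, with no mean above 0.140 FPKM and no library above 0.300 FPKM. They included hosts of microRNAs that mark other tissues, such as MIR124-1HG and MIR124-2HG (neural), MIR1-1HG and MIR133A1HG (muscle). MIR200CHG, host of the epithelial miR-200c, was listed at 0.04 FPKM in CAFS-CM replicate 1 and at 0 in the other 5 libraries. MIR205HG, host of the epithelial miR-205, was listed at 0.11 FPKM in CAFR-CM replicate 1 and at 0 in the other 5. The table holds no read counts, so a listed 0 does not show that a transcript was absent.

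Genes within 50 kb of the 11 called host genes were then compared, since a host gene can share a domain or a promoter with its neighbours. By GENCODE v44, 37 neighbours lay there, 31 were tested, 14 were higher and 4 were lower after CAFR-CM, where 15.1% of all genes tested were higher and 11.1% lower. Near MIR31HG 3 neighbours were tested and near MIR99AHG 1, with 0 higher and 0 lower, and near MIR181A1HG 0 were tested. The region of MIR210HG held 8 of the neighbours tested, 5 higher and 2 lower. These counts were not tested against those shares. LMNTD2-AS1, an antisense transcript, was at 17.5, 14.48 and 14.82 FPKM in the CAFR-CM libraries and 2.2, 2.89 and 2.22 FPKM in the CAFS-CM libraries. The groups did not overlap, as for MIR210HG itself, and the ratio of the means was 6.40, beside 6.04 for MIR210HG (LMNTD2-AS1 log2 fold change 2.27, SE 0.11, adjusted p = 4.14e-05 from limma). It overlaps LMNTD2 on the other strand, so its reads may not have been told apart from those of LMNTD2, which was higher with a log2 fold change of 0.54 (adjusted p = 0.00941 from limma).

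RASSF7, the nearest gene at 1632 bases, did not pass the test, with 41.7, 43.55 and 41.41 FPKM in the CAFR-CM libraries and 40.8, 37.83 and 40.07 FPKM in the CAFS-CM libraries (adjusted p = 0.162 from limma). LRRC56 was higher (log2 fold change 0.27), as were IRF7, an interferon regulatory factor (0.43), and CDHR5 (0.51), with adjusted p of 0.0260, 0.0109 and 0.0359 from limma. HRAS, the GTPase oncogene, was lower, at 49.46, 43.92 and 45.21 FPKM in the CAFR-CM libraries and 63.98, 59.16 and 59.86 FPKM in the CAFS-CM libraries (log2 fold change -0.39, adjusted p = 0.00274 from limma). PHRF1 was lower as well (log2 fold change -0.24, adjusted p = 0.00938 from limma). Genes that were higher, lower and not called thus stood side by side in this region.

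**Figure D3:**
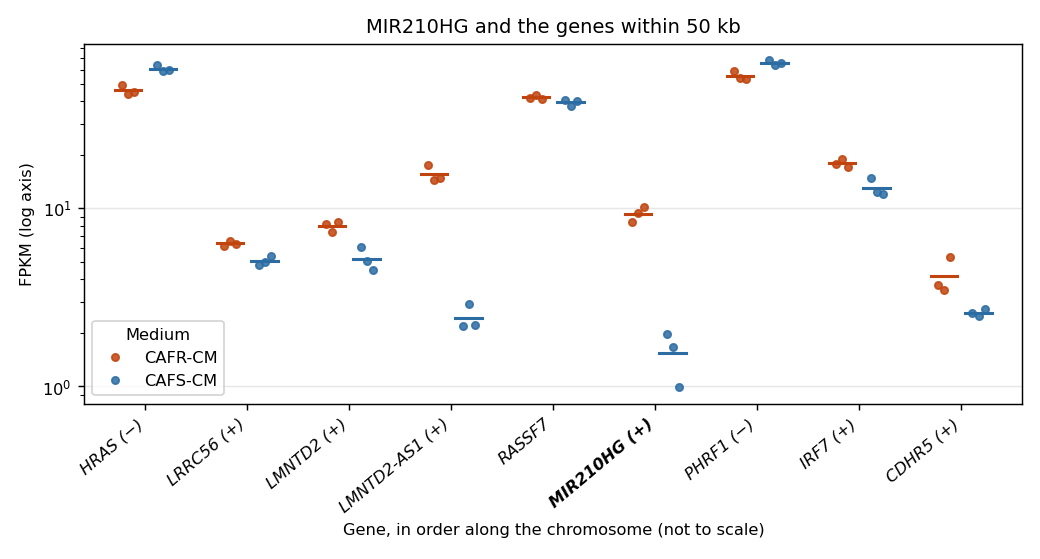
FPKM (log axis) of MIR210HG and the 8 genes within 50 kb in each of the 3 CAFR-CM and 3 CAFS-CM libraries, in order along the chromosome and not to scale, with a line at each group mean; (+) and (−) mark genes higher or lower at an adjusted p under 0.05. LMNTD2-AS1 and MIR210HG show wide gaps with the CAFR-CM libraries on top, RASSF7 between them shows little, and HRAS and PHRF1 lie lower after CAFR-CM.

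Next to MIR3936HG, P4HA2, a subunit of the collagen prolyl 4-hydroxylase, was at 15.73, 16.69 and 16.7 FPKM in the CAFR-CM libraries and 5.45, 5.24 and 4.79 FPKM in the CAFS-CM libraries (log2 fold change 1.50, adjusted p = 2.31e-05 from limma). MIR3936HG itself had a log2 fold change of 0.62. IRF1-AS1 (log2 fold change 0.84, adjusted p = 0.00393 from limma) and PDLIM4 (0.50, adjusted p = 0.00631 from limma) were higher in the same region. Next to MIR34AHG, H6PD, the hexose-6-phosphate dehydrogenase of the endoplasmic reticulum, was at 14.38, 15.42 and 14.74 FPKM in the CAFR-CM libraries and 7.56, 7.12 and 7.75 FPKM in the CAFS-CM libraries (log2 fold change 0.90, adjusted p = 1.03e-04 from limma). GPR157, on the other side of MIR34AHG, was higher too (0.41, adjusted p = 0.00738 from limma), while LNCTAM34A, which overlaps MIR34AHG on the opposite strand, was not called (0.32, adjusted p = 0.0714 from limma).

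The apoptosis activator BCL2L11 overlaps MIR4435-2HG on the opposite strand, and in mouse the counterpart of this lncRNA is known to repress Bcl2l11. BCL2L11 was at 9.18, 8.15 and 9.21 FPKM in the CAFR-CM libraries and 6.79, 5.98 and 6.3 FPKM in the CAFS-CM libraries. BCL2L11 was higher after CAFR-CM (log2 fold change 0.42, adjusted p = 0.00693 from limma). Any relation to MIR4435-2HG was not tested, and reads of the overlapping strands may not have been told apart. Next to MIR3142HG, the securin gene PTTG1 was lower, at 128.26, 119.15 and 129.22 FPKM in the CAFR-CM libraries and 160.11, 187.07 and 171.15 FPKM in the CAFS-CM libraries (log2 fold change -0.46, adjusted p = 0.00272 from limma). Beside MIR1915HG, SKIDA1 was lower (-0.40, adjusted p = 0.0252 from limma). Beside MIR503HG, the low-level PLAC1 and LINC00629 were higher (0.50 and 0.33, adjusted p of 0.00543 and 0.0176 from limma), and MRTFB beside MIR193BHG had a log2 fold change of 0.13 (adjusted p = 0.0451 from limma).

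The promoter of MIR210HG is shown because this host gene had the largest log2 fold change on the log2(FPKM + 1) scale. The RefSeq window (GRCh38.p14, chr11:568408-568707, minus strand) runs from 250 bases before the gene start to 50 bases after it, and capitals mark ACGTG, the core of a hypoxia response element.
MIR210HG promoter: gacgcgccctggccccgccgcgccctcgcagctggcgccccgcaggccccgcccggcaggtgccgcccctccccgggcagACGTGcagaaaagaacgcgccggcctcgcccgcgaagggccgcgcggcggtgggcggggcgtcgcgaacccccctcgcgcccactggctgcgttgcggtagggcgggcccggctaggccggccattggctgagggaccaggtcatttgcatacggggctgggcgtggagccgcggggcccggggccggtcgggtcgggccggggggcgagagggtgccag
The window held ACGTG once, beginning 170 bases before the gene start. Windows of the same kind were found for 45 host genes, 61 in all, and 19 of them (31.1%) held ACGTG on either strand, beside 21.4% of all 35116 windows of the table and 24.4% of the windows of genes tested. Some windows lie well inside the GENCODE span given above and not at its start, as for MIR34AHG, MIR3142HG and MIR99AHG. Of the 14 windows of host genes called higher, 3 (21.4%) held it, those of MIR210HG, MIR34AHG and MIR503HG, and the windows of MIR193BHG, MIR31HG, MIR99AHG, MIR181A1HG, MIR3936HG and MIR3142HG did not. Several of the 14 belong to MIR99AHG, and some of these overlap, so the share of windows is not a share of genes. A kappa B consensus, searched on both strands and chosen after the values were seen, was in 7 of the 61 windows (11.5%), beside 11.3% of all windows and 13.2% of the windows of genes tested. Of the 14 windows of host genes called higher, 2 (14.3%) held it, that of MIR3142HG and 1 of those of MIR99AHG. A match to these letters is a description and not a binding site.

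Of 29 genes that process microRNAs, all tested, 1 was higher and 4 were lower after CAFR-CM, beside 15.1% and 11.1% of all genes tested, with a median log2 fold change of 0.03 beside 0.06 for all genes. With cyclic loess scaling 4 were higher and 5 lower, and with median-of-ratios scaling 1 was higher and 8 lower. Most of the 29 had a mean of at least 1 FPKM, where 36.7% of all genes tested were called in either direction. DROSHA, the nuclease of the Microprocessor, was at 18.0, 17.58 and 16.83 FPKM in the CAFR-CM libraries and 21.25, 22.9 and 21.43 FPKM in the CAFS-CM libraries. All CAFR-CM libraries were below all CAFS-CM libraries (log2 fold change -0.31, SE 0.05, adjusted p = 0.00436 from limma). Its partner DGCR8 was not called (0.03, adjusted p = 0.806 from limma), nor were the exporter XPO5 (0.02, adjusted p = 0.799 from limma), DICER1 (0.03, adjusted p = 0.799 from limma) and AGO2 (0.16, adjusted p = 0.509 from limma).

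SRRT, which links the nuclear cap-binding complex to primary microRNAs, was lower, at 54.27, 52.58 and 54.43 FPKM in the CAFR-CM libraries and 75.94, 75.37 and 74.98 FPKM in the CAFS-CM libraries (log2 fold change -0.48, adjusted p = 1.29e-04 from limma). KHSRP, which binds the loops of let-7 precursors, was lower with a log2 fold change of -0.30 (adjusted p = 0.00247 from limma). The 1 gene higher was ZC3H12A, an RNase known to cleave inflammatory mRNAs and microRNA precursors. It was at 9.66, 9.69 and 9.4 FPKM in the CAFR-CM libraries and 5.05, 4.53 and 4.43 FPKM in the CAFS-CM libraries (log2 fold change 0.90, SE 0.07, adjusted p = 2.08e-04 from limma).

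Because MIR210HG had the largest log2 fold change on this scale, mRNAs reported elsewhere as targets of miR-210 were compared. Of 16 tested, 1 was higher and 6 were lower, beside 15.1% and 11.1% of all genes tested, with a median log2 fold change of -0.13 beside 0.06 for all genes. The count of lower genes was 3 with no filter and 2 without CAFR-CM replicate 3, CAFS-CM replicate 2 or CAFS-CM replicate 3. All 16 had a mean of at least 1 FPKM, a level at which 36.7% of all genes tested were called in either direction. The transferrin receptor TFRC was at 25.73, 26.2 and 28.32 FPKM in the CAFR-CM libraries and 35.13, 35.03 and 35.59 FPKM in the CAFS-CM libraries (log2 fold change -0.39, SE 0.04, adjusted p = 0.00133 from limma). FGFRL1, a fibroblast growth factor receptor-like gene (-0.22, adjusted p = 0.00811 from limma), and SDHD, a subunit of succinate dehydrogenase (-0.26, adjusted p = 0.0183 from limma), were lower as well, as was the iron-sulfur cluster scaffold ISCU (-0.20, adjusted p = 0.0247 from limma). EFNA3, an ephrin ligand, was higher, at 4.94, 5.77 and 6.13 FPKM in the CAFR-CM libraries and 3.04, 2.43 and 2.73 FPKM in the CAFS-CM libraries (log2 fold change 0.82, SE 0.10, adjusted p = 0.00180 from limma). Targeting by miR-210 was not measured in these libraries.

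**Figure D4:**
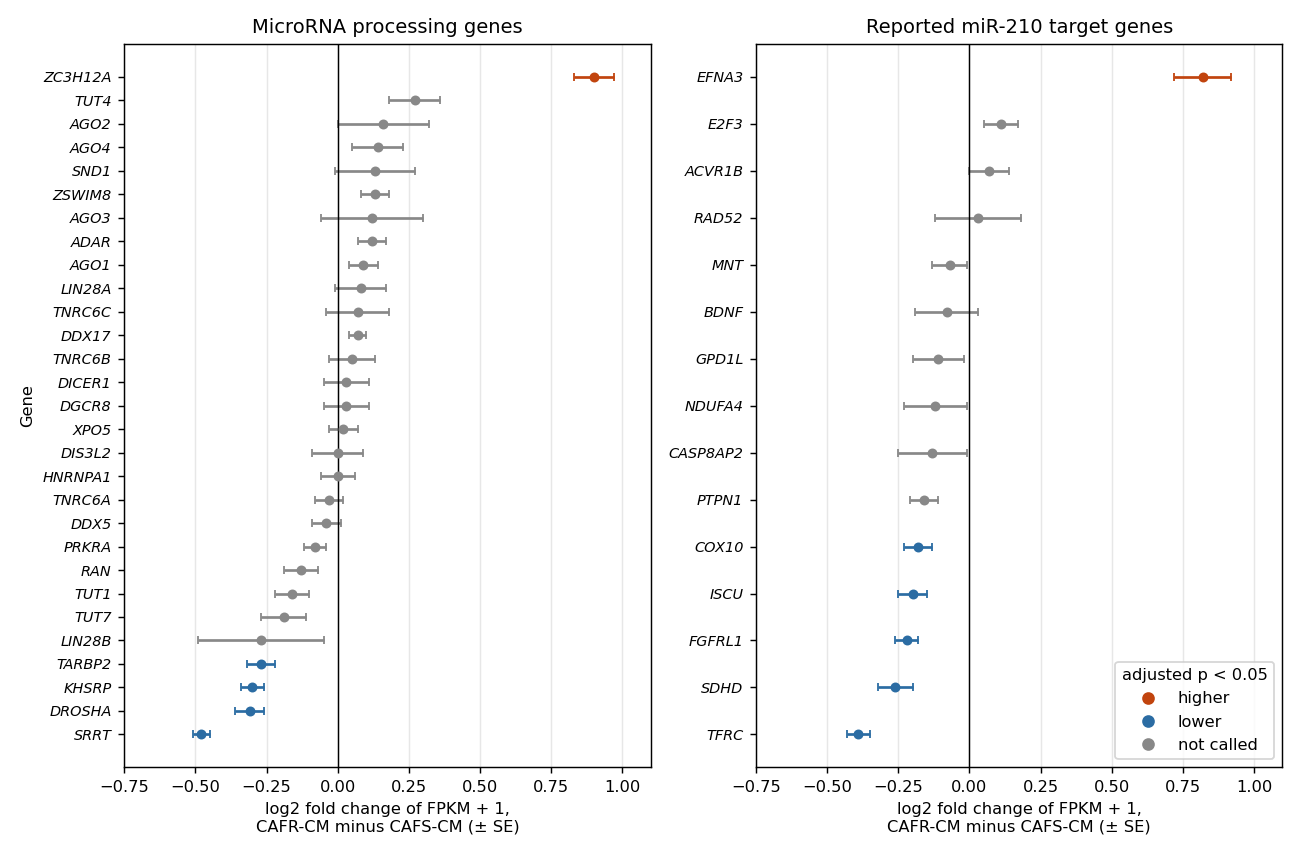
Log2 fold changes of FPKM + 1 (CAFR-CM minus CAFS-CM) with standard errors from limma for 29 microRNA processing genes (left) and 15 of the 16 reported miR-210 target genes (right), colored by call at an adjusted p under 0.05. ZC3H12A at 0.90 and EFNA3 at 0.82 are the genes called higher, and SRRT at -0.48 and TFRC at -0.39 are the lowest of the genes shown.

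MicroRNA hosts of other kinds were compared as well. Of 45 protein-coding genes known to host a microRNA, 39 were tested, 11 were higher and 9 were lower, beside 15.1% and 11.1% of all genes tested, with a median log2 fold change of 0.00. Most of the 39 had a mean of at least 1 FPKM, where 36.7% of all genes tested were called in either direction. IGF2, an insulin-like growth factor that hosts miR-483, was at 14.18, 13.72 and 12.83 FPKM in the CAFR-CM libraries and 3.8, 4.02 and 3.6 FPKM in the CAFS-CM libraries (log2 fold change 1.60, SE 0.07, adjusted p = 2.31e-05 from limma). EGFL7, the host of miR-126, was higher with a log2 fold change of 0.55 (adjusted p = 1.05e-04 from limma). MCM7, a replicative helicase subunit that hosts the miR-106b-25 cluster, was lower with a log2 fold change of -0.48 (adjusted p = 2.50e-04 from limma). SMC4, a condensin subunit that hosts miR-15b and miR-16-2, was lower with a log2 fold change of -0.56 (adjusted p = 3.18e-04 from limma).

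Of 9 other noncoding hosts, 6 were tested, 2 were higher and 0 were lower, beside the same shares of all genes. FTX, a lncRNA of the X-inactivation center that hosts the miR-374 cluster, was at 45.01, 48.64 and 46.13 FPKM in the CAFR-CM libraries and 26.01, 22.64 and 28.02 FPKM in the CAFS-CM libraries (log2 fold change 0.85, SE 0.08, adjusted p = 5.08e-04 from limma). MEG8, of the imprinted DLK1-DIO3 region, was at 12.15, 8.9 and 12.46 FPKM in the CAFR-CM libraries and 6.55, 4.85 and 6.34 FPKM in the CAFS-CM libraries (log2 fold change 0.81, SE 0.15, adjusted p = 0.00835 from limma). H19, the imprinted host of miR-675, varied within groups, at 2.21, 5.28 and 0.57 FPKM in the CAFR-CM libraries and 0.29, 1.11 and 0 FPKM in the CAFS-CM libraries, and did not pass the test (adjusted p = 0.138 from limma). LINC00461, a host of miR-9-2, was not called either (log2 fold change 0.22, adjusted p = 0.250 from limma).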

How the data were processed

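RNA sequencing libraries of Panc-1 cells, 3 per medium, were grouped by the titles given to the samples. The authors deposited 1 table of FPKM, rounded to 2 decimals. Per the study's methods, SOAPnuke removed poor reads, HISAT2 (version 2.0.4) aligned the rest to GRCh38.p13, and RSEM (version 1.2.12) estimated gene levels. DESeq2 (version 1.4.5) and Bowtie2 (version 2.2.5) appear in the submitters' processing notes too. The sources used here do not give the annotation or the strand setting. Of 97767 rows, 55272 circular RNA rows held no value. The files hold no counts, so the depth per sample is unknown and no counting interval is given. FPKM are scaled by library total, so abundant RNAs can shift other values.

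Values were transformed to log2(FPKM + 1), and limma (version 3.58.1, in R 4.3.3) fitted the group difference with a trend of variance on mean, for genes above 0.1 FPKM in at least 3 libraries, with Benjamini-Hochberg adjustment. The fit was tried on simulated data with 2-fold and 4-fold changes, set only in genes with a CAFS-CM mean of at least 1 FPKM. Smaller changes, and changes in genes below that level, were not covered. The count test of the study was not run, as it needs counts. Members and gene lists were chosen with earlier results of these data known. Genes named in full were host genes at an adjusted p under 0.05 or a mean of at least 1 FPKM and MIR210HG, MIR193BHG, MIR155HG, MIR17HG, MIR34AHG, MIR22HG and MIRLET7BHG. Also named were, of each other list, the 4 members with the smallest adjusted p and DROSHA, DGCR8, XPO5, DICER1 and AGO2. Of the neighbours within 50 kb of called hosts, all that were called and only some of the others were named. MIR137HG, MIR181A2HG, MIR194-2HG, CYTOR, ISCU, the named host genes below the filter and the marker genes given with values were named after their values were seen. Of the miR-210 target list, 1 gene is not reported here by name. Coordinates are from GENCODE v44 on GRCh38, found for 57 of 59 members. Alternatives were another pseudocount (0.1), other filters, 2 other scalings, no trend, a replicate block, a log2 fold limit of 1 and leaving out each replicate.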

Additional observations from a re-analysis of the deposited data

How the results depend on the processing

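With a log2 fold limit of 1, the counts of genes higher and lower after CAFR-CM were 2 and 0 for host genes, 264 and 14 for all genes, 0 and 0 for processing genes, 2 and 0 for protein-coding hosts and 0 and 0 for miR-210 targets, and 0 other noncoding hosts were higher. With no filter on low values, 3 miR-210 targets were lower and 1 other noncoding host was higher. Cyclic loess scaling gave 4 processing genes higher, and median-of-ratios scaling gave 8 lower. Median-of-ratios scaling also gave 2784 genes higher and 3837 lower over all genes, beside 3560 and 2626 as deposited, while host genes were at 8 and 2. The causes were not tested. Leaving out 1 replicate at a time gave 7 to 9 host genes higher and 2 to 2 lower. Over all genes it gave 2330 (without CAFS-CM replicate 2) to 3328 higher. It gave 1 to 2 processing genes higher and 2 to 5 miR-210 targets lower. Protein-coding hosts were at 8 to 9 higher, beside 11 with all libraries, and 5 to 8 lower (5 without CAFS-CM replicate 1 or 3). MIR3142HG could not be tested without any 1 CAFR-CM replicate, since it then failed the filter. Nor was MIR3142HG tested when a mean of at least 1 FPKM was required, as its mean was 0.522 FPKM. Of the 59 host genes, 42 were above 0 and 27 above 0.5 FPKM in at least 3 libraries.

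With the replicate number as a replicate block, 8 host genes were higher and 2 lower, and 3 miR-210 targets were lower. The correlations of deviations for libraries of the same number were 0.020, -0.028 and 0.062, so no pairing by number was seen. They do not show whether libraries of the same number were prepared together. No host gene called here changed direction under any alternative. Of the 11 called host genes, MIR503HG lost its call under 8 alternatives and MIR181A1HG under 1 (no filter). The other 9 kept theirs under each alternative that could test them, except the fold limit, which MIR210HG and MIR193BHG alone passed. These 9 include MIR3142HG, tested under 9 alternatives. The filter fixed its direction, so its kept call adds no support. Depth could not be read from FPKM, which limits the values below 1 FPKM.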
